A study of Mus musculus with 11 samples.

Results

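The genes described here encode neuronal potassium channels and the small proteins bound to them in mouse hippocampus. They were taken by gene symbol from a fixed list of 31, and all 31 were found among the 30681 genes of the table. The list holds 5 Kv1 genes, 4 genes of the Kv2 and Kv3 families, 2 Kv4 genes, 4 genes of potassium channel interacting proteins (KChIPs), 2 Kv7 genes, 4 genes of the ether-a-go-go family, 4 genes of calcium-activated channels, 4 inward rectifier genes and 2 genes of tandem-pore channels. Every one of the 31 passed the filter on low counts.

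RNA sequencing of polyadenylated RNA was carried out on 11 libraries, each made from 1 hippocampus of adult mice aged 6 months. A group of 6 libraries carried the label of a conditional Dclk3 knockout (cKO), in which the gene of a doublecortin-like kinase is deleted only in cells with a recombinase. The other 5 libraries were labelled wild type (WT) and served as its controls. The sources used here do not give the recombinase line, the strain or the deleted part of Dclk3, and nothing says whether any animals gave more than 1 library, so the p-values below measure the spread between these libraries.

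Potassium channels let potassium leave the neuron and so pull the membrane back from the firing threshold. Kv channels open with depolarization and set the width and rate of action potentials, Kv4 channels with their KChIP subunits carry the transient A-type current of dendrites, and Kv7 channels carry the M-current that muscarinic receptors shut. Calcium-activated channels follow a burst with an afterhyperpolarization, G protein-gated inward rectifiers answer inhibitory transmitters such as GABA and adenosine, and tandem-pore channels contribute to the resting conductance.

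Library totals lay between 24001828 and 35674490 counts. Dclk3 itself had 20.1 ± 3.44 CPM (counts scaled to a common library size with TMM factors) in cKO-labelled libraries and 22.4 ± 3.31 CPM in WT (SD, n = 6 and 5). The difference did not pass the test (log2 fold change -0.15 ± 0.12, SE; edgeR, adjusted p = 0.727), so the group is named by its label throughout. By Xist and Y-linked transcripts all 6 libraries labelled cKO were male, while WT held 2 male libraries (replicates 2 and 5) and 3 female ones (replicates 1, 3 and 4). Defining markers of dentate granule cells (Prox1, C1ql2), CA1 (Wfs1, Fibcd1) and CA2 and CA3 (Rgs14, Bok) were detected in every library. The summed level of 6 astrocyte markers was 7974 to 9997 CPM in cKO-labelled libraries and 6401 to 7591 CPM in WT, and that of 10 thalamic markers 117 to 141 CPM in cKO-labelled libraries and 129 to 159.5 CPM in WT. The sum of 6 microglial markers was 561 to 816 CPM in cKO-labelled libraries and 560.4 to 616 CPM in WT, and that of 7 meningeal markers 91.2 to 180.4 CPM in cKO-labelled libraries and 119.9 to 181 CPM in WT. At an unadjusted p under 0.05 (edgeR), 3 astrocyte and 4 microglial genes had higher values in cKO-labelled libraries, and 3 thalamic and 4 meningeal genes lower ones. Of the other lists, 1 striatal gene was higher, and 1 dentate granule, 1 striatal and 1 choroid plexus gene were lower. The background over all tested genes was 3.84% higher and 5.35% lower. No list had a gene at 0 in all libraries, and the part of the astrocyte, microglial and meningeal lists in the results below was not tested. The thalamic list was among those correlated with the channel genes, and no relation with it passed adjusted over all relations (smallest adjusted permutation p = 0.155 by Pearson's r).

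The levels of the channel genes spanned a wide range. Per kilobase of annotated exon, the level was highest for Kcnip2, with 53.2 CPM per kb in cKO-labelled libraries and 58.3 CPM per kb in WT, and lowest for Kcnh5, with 0.892 CPM per kb in cKO-labelled libraries and 0.925 CPM per kb in WT. That is a ratio of 59.7 between the extremes in cKO-labelled libraries and of 63.1 in WT. Kcnip2 encodes KChIP2, a calcium-binding partner of Kv4 channels, and Kcnh5 a member of the ether-a-go-go family. Next after Kcnip2 came Kcnk1 (36.4 CPM per kb in cKO-labelled libraries and 34.4 in WT), Kcnip3 (34.6 in cKO-labelled libraries and 31.1 in WT) and Kcnj4 (30.9 in both groups). The libraries of these last 3 genes overlapped each other in level per kb in each group, and all lay below every library of Kcnip2. The order of the 31 genes was nearly the same in the 2 groups, since 23 genes held the same rank and none moved by more than 2 places. Kcnh5 also had the smallest count, at 92 in the library where it was lowest, while Kcnip2 reached 7353 counts, and no member was at 0 in any library. Levels per kb use all annotated exons of a gene, so they come out too low for genes whose longest exons are not used in this tissue.

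**Figure D1:**
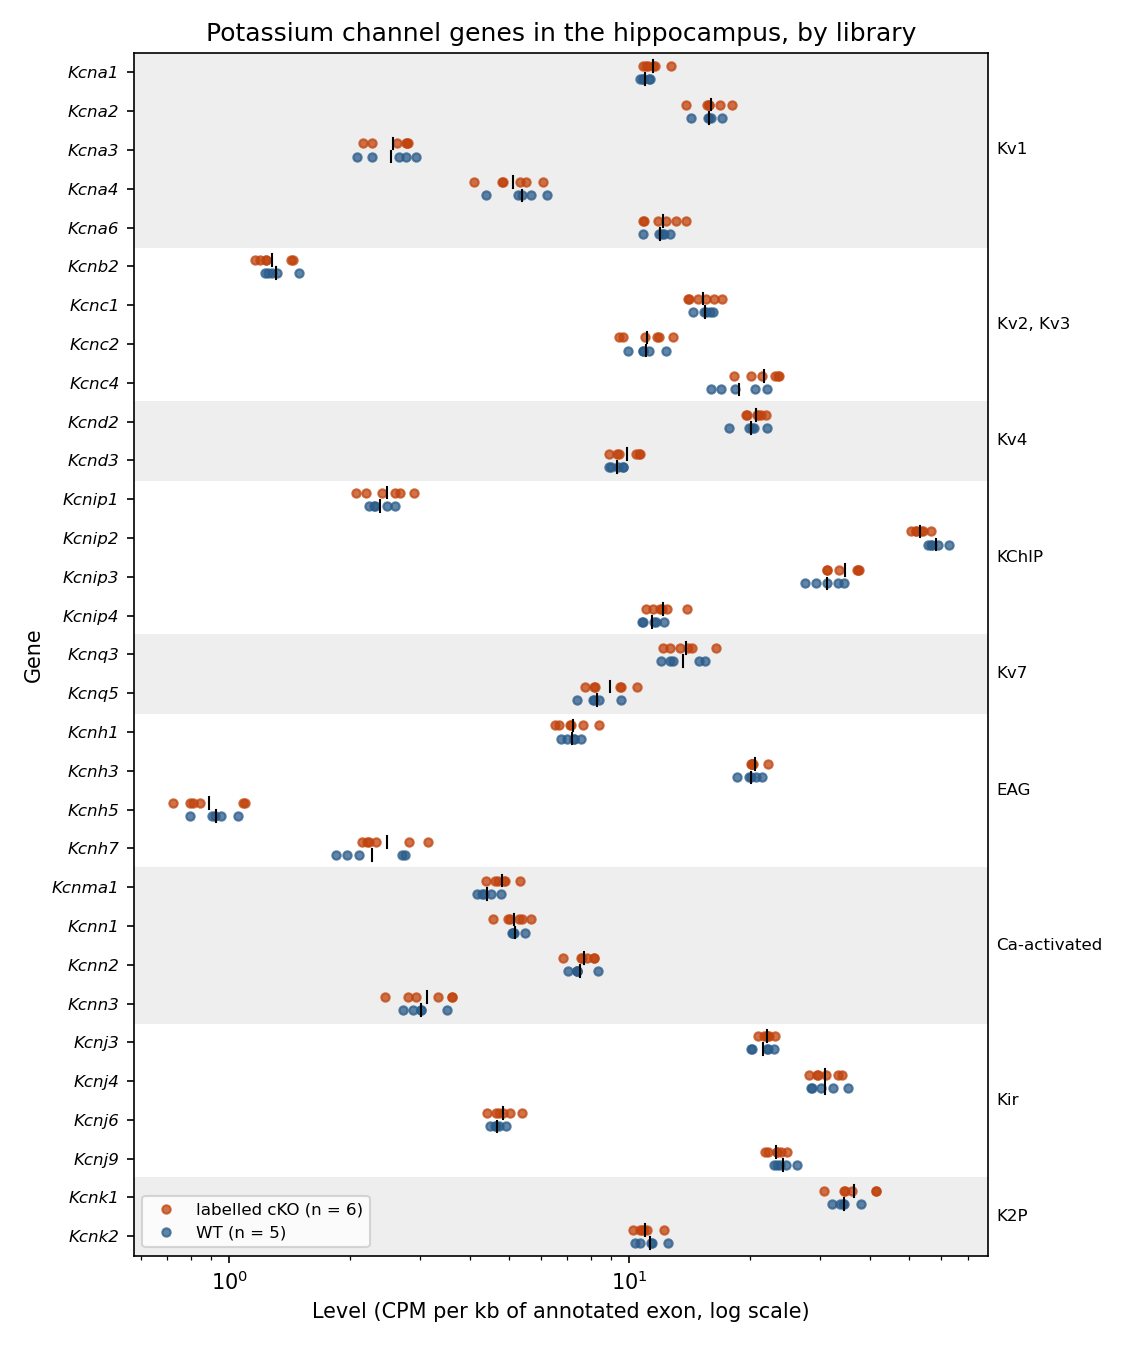
Level of each of the 31 genes in CPM per kilobase of annotated exon (log axis), 1 point per library, with 6 libraries labelled cKO above and 5 WT libraries below in each row and a black tick at the group mean. Kcnip2 stands above the other genes and Kcnh5 below them in both groups, and within each gene the 2 groups overlap.

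None of the 31 genes passed the test between the genotypes. The smallest adjusted p among them was 0.422 and the largest 0.997 (edgeR's quasi-likelihood test, Benjamini-Hochberg over 16587 genes, called share 0%), and DESeq2, which called 0.375% of the genes it adjusted, also called no member (smallest adjusted p = 0.21). At an unadjusted p under 0.05 edgeR gave 4 members, against a background of 9.19% of all genes tested. Of these 3 had higher values in cKO-labelled libraries (background 3.84%) and 1 had a lower value (background 5.35%). No member had groups that did not overlap, against a background of 0.916% of all genes (0.404% higher and 0.512% lower). The log2 fold changes of the 31 genes ran from -0.13 to 0.21 with a median of 0.03, and 22 lay above 0 and 9 below it. Over all tested genes the median was -7.9e-05 and 8293 of 16587 lay above 0. The summed level of the 31 genes was 2371 ± 65.7 CPM in cKO-labelled libraries and 2325 ± 44.3 CPM in WT (SD, n = 6 and 5), and the ranges overlapped, from 2290.1 to 2467 CPM in cKO-labelled libraries and from 2288 to 2397 CPM in WT.

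The precision was enough to bound most of these differences. For 28 of the 31 genes the 95% interval of the fold change lay within 0.32 on the log2 scale in either direction. The exceptions were Kcnc4, Kcnh5 and Kcnh7, whose intervals reached farther, the widest bounds being 0.41 on the log2 scale for Kcnh7 and -0.33 for Kcnh5. With a term for the sex read from the transcripts the intervals were wider, and 21 genes lay within that limit and 10 reached past it, the widest bounds being 0.51 for Kcnc4 and -0.41 for Kcnh7. Leaving out WT replicate 1, 2 or 5 gave 1, 2 and 14 genes called over the whole table (edgeR), none of them a member.

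**Figure D2:**
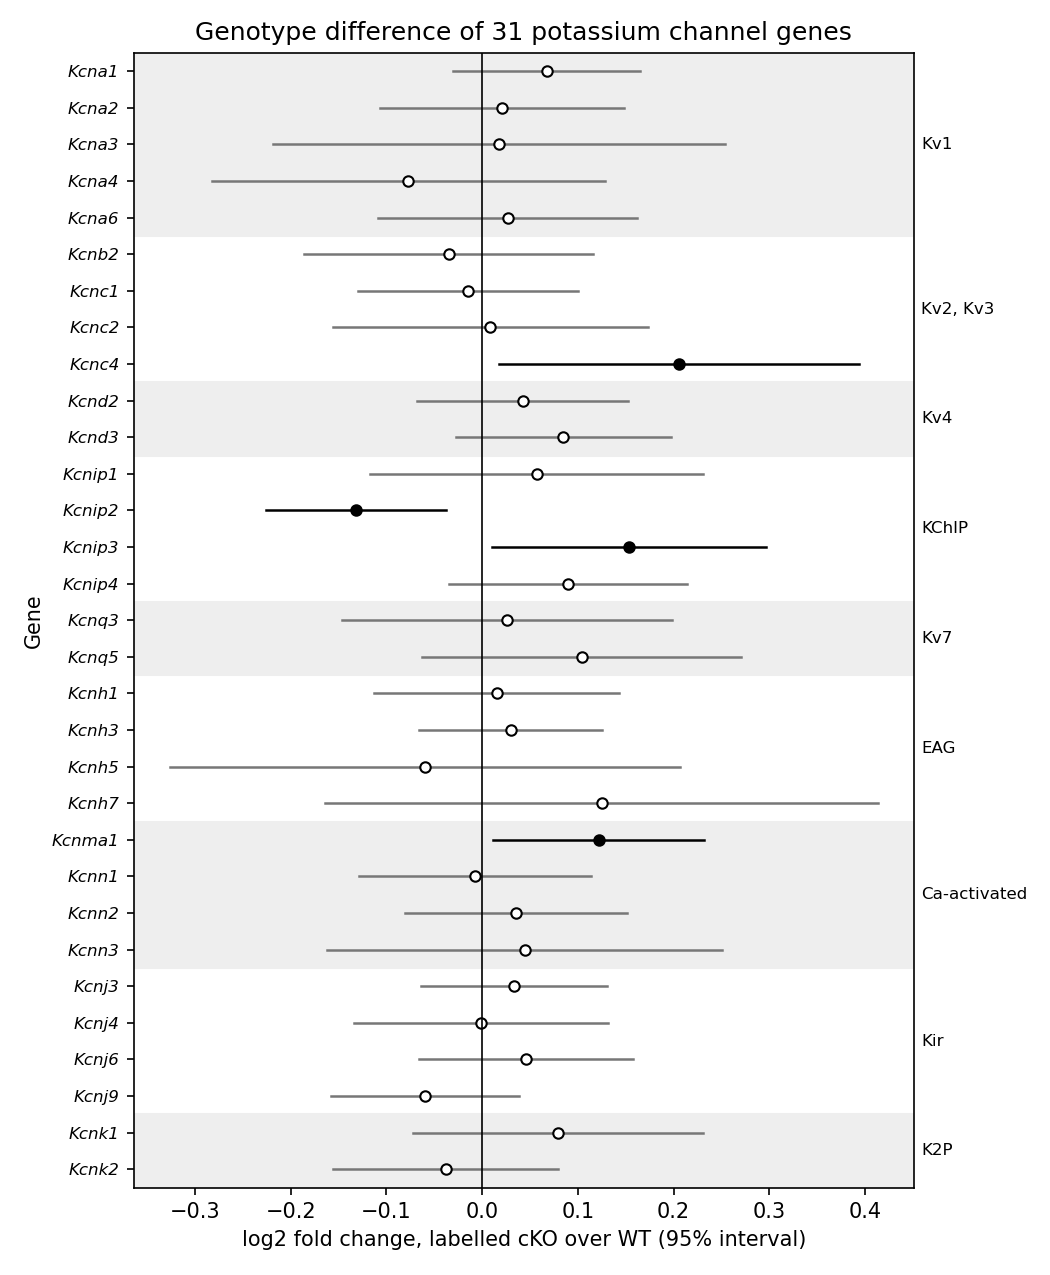
Log2 fold change of each gene, labelled cKO over WT, with its 95% interval from edgeR (6 against 5 libraries), where filled points mark an unadjusted p under 0.05. The filled points are Kcnc4, Kcnip2, Kcnip3 and Kcnma1, and every interval but these 4 spans 0.

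Among the members of smallest p, Kcnip2 was the 1 gene with lower values in cKO-labelled libraries. It lies on chromosome 19 (45791839 to 45816061, minus strand, mm10). Replicates 1 to 6 labelled cKO had 197.5, 176, 181, 189, 186 and 181 CPM. WT replicates 1 to 5 had 199, 197, 205, 219 and 194 CPM. Replicate 1 labelled cKO stood among the lower WT libraries, and the other 5 lay below every WT library. Its log2 fold change of -0.13 ± 0.04 (SE) had 95% bounds of -0.23 and -0.04 (edgeR, unadjusted p = 0.00903, adjusted p = 0.422). With a term for the sex read from the transcripts it was -0.08 ± 0.06 (edgeR, adjusted p = 0.797).

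Kcnip3 and Kcnc4 had higher values in cKO-labelled libraries and followed the same libraries. Kcnip3 encodes KChIP3, a Kv4 subunit also known as the calcium-dependent repressor DREAM, and lies on chromosome 2 (127456498 to 127522094, minus strand). It had 110.5, 132, 131, 133, 110.3 and 119 CPM in replicates 1 to 6 labelled cKO, against 122, 104, 97.4, 110.3 and 118 CPM in WT replicates 1 to 5. Kcnc4, a Kv3 gene whose channel inactivates quickly, lies on chromosome 3 (107438303 to 107459552, minus strand). Its values were 66.8, 85.0, 86.5, 86.1, 73.7 and 78.6 CPM in replicates 1 to 6 labelled cKO, against 80.9, 58.5, 62.0, 67.5 and 75.7 CPM in WT replicates 1 to 5. For both genes replicates 2, 3 and 4 labelled cKO lay above every WT library, replicates 1, 5 and 6 labelled cKO stood within the WT range, and WT replicates 1 and 5 were the highest of their group. The log2 fold change was 0.15 ± 0.07 for Kcnip3 (SE; adjusted p = 0.509 by edgeR) and 0.21 ± 0.09 for Kcnc4 (SE; adjusted p = 0.507 by edgeR).

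Kcnma1, the pore-forming gene of the large-conductance calcium-activated channel, shares 5.98% of its exon bases with 4930519K11Rik on the opposite strand and lies on chromosome 14 (23289431 to 24014491, minus strand). Its values were 90.5, 83.1, 79.8, 78.1, 82.4 and 74.4 CPM in replicates 1 to 6 labelled cKO. In WT replicates 1 to 5 they were 76.5, 73.3, 72.5, 70.7 and 80.9 CPM. The groups overlapped, since replicates 3, 4 and 6 labelled cKO lay below WT replicate 5, the highest of its group. The log2 fold change was 0.12 ± 0.05 (SE; adjusted p = 0.504 by edgeR). The number of members at an unadjusted p under 0.05 with higher values, 3 in all libraries, was 0 without replicate 2 labelled cKO or WT replicate 2, 3 or 4, and 1 without replicate 3 or 4 labelled cKO. It was also 0 with a sex term and in the 8 male libraries, where no member had lower values at that level either. With the sex term Kcnc4 was at 0.24 ± 0.12 and Kcnip3 at 0.15 ± 0.10 on the log2 scale, close to their values without it but with larger SE, while Kcnma1 was at 0.08 ± 0.07 (SE; edgeR, adjusted p = 0.721, 0.776 and 0.839).

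**Figure D3:**
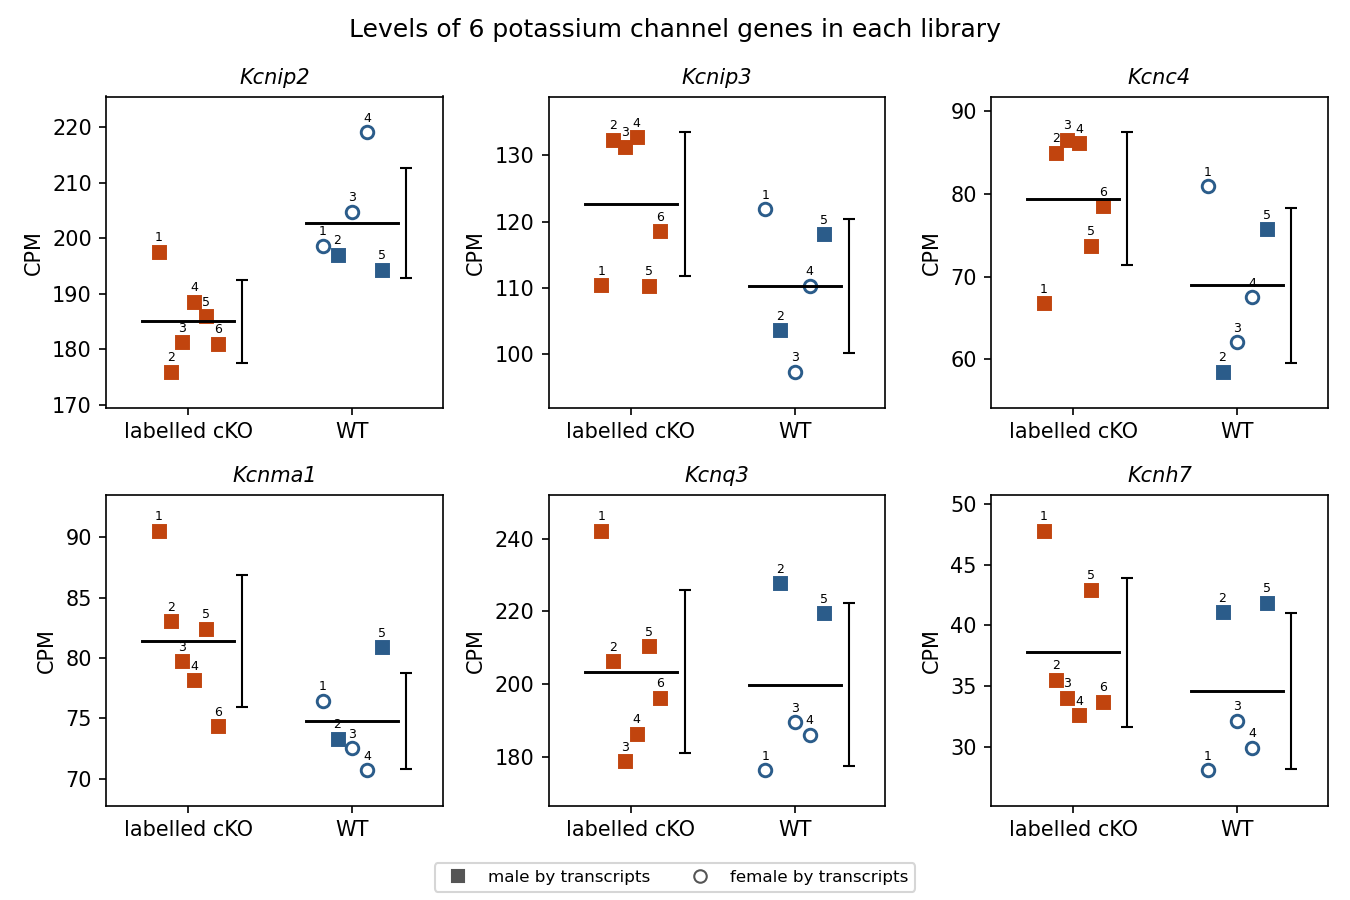
CPM of 6 channel genes in each library (numbers are replicates), labelled cKO on the left and WT on the right, with the group mean as a line and its SD as a bar (n = 6 and 5). Squares are libraries read as male from their transcripts and open circles those read as female. The vertical axes do not start at 0. The groups overlap for every gene, and for Kcnq3 and Kcnh7 the 2 male WT libraries stand above the 3 female ones.

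The stretches around the annotated starts of these 4 genes are shown because they are the members with the smallest p. They are 300-base windows from RefSeq on GRCm38.p6 (the build mm10), from 250 bases before to 50 after the start, all read 5′ to 3′ on the minus strand. Capitals mark GGGCGG, the GC box, and TGACG, the core of the cyclic AMP response element, on either strand, with overlapping copies counted each. The Kcnip2 window is chr19:45816014-45816313, that of Kcnma1 chr14:24004156-24004455 and that of Kcnc4 chr3:107458849-107459148. The windows of Kcnma1 and Kcnc4 lie wholly inside the gene spans given above, whose upstream ends are at 24014491 and 107459552. For Kcnip3, which has 3 starts in the table, the most upstream is shown, chr2:127522045-127522344.
Kcnip2: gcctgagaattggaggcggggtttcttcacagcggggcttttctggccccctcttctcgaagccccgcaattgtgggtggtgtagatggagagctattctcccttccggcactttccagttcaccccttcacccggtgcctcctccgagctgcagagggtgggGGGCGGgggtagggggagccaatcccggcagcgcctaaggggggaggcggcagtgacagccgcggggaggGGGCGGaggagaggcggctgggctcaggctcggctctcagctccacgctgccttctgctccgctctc
Kcnma1: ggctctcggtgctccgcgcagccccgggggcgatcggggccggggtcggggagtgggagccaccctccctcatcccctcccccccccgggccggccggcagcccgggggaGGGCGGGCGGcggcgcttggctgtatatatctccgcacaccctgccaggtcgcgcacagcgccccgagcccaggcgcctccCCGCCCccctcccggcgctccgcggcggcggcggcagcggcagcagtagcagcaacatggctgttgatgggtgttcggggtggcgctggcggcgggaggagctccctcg
Kcnc4: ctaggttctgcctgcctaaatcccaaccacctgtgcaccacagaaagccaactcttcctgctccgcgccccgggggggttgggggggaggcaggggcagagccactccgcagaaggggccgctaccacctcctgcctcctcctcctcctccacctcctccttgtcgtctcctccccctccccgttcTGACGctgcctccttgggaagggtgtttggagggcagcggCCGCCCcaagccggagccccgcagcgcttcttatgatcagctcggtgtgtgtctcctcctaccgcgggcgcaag
Kcnip3: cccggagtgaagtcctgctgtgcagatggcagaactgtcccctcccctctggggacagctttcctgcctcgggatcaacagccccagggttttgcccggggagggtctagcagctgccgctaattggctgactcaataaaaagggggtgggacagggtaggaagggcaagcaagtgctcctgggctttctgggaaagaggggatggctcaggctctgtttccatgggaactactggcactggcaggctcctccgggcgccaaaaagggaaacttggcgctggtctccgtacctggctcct

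The windows of Kcnip2, Kcnma1 and Kcnc4 held 2, 3 and 1 copies of the GC box, and that of Kcnc4 also 1 copy of TGACG. The Kcnip3 window shown held neither, while those at its other starts held 1 and 2 GC boxes. Of the 31 genes 26 had a window, 40 windows in all, and Kcna1, Kcnb2, Kcnq3, Kcnh3 and Kcnn2 had none. The GC box was present in 20 of the 40 windows and in 35.7% of 32851 windows of all genes, TGACG in 7 (17.5%) and 20.8%, and the TATA box core TATAAA in 1 (2.5%) and 13.6%. The median GC content was 62.5% in the windows of the channel genes and 52.7% in those of all genes.

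The Kv1 genes, whose channels open at low voltage on axons and their terminals, had log2 fold changes from -0.08 to 0.07. Kcna2, the Kv1 gene with the highest level per kb, had 165 to 215 CPM in cKO-labelled libraries with a median of 188, and 188, 188, 190.3, 169.8 and 203 CPM in WT replicates 1 to 5. The highest value of the gene was in replicate 1 labelled cKO and the lowest in replicate 6 labelled cKO, so the WT values lay inside the range of the libraries labelled cKO. Its log2 fold change was 0.02 ± 0.06 (SE; adjusted p = 0.948 by edgeR) and -0.04 with a sex term. Kcna1, which forms mixed channels with Kcna2, had 51.7 to 60.6 CPM with a median of 54.0 in cKO-labelled libraries, and 53.8, 51.6, 53.4, 50.8 and 51.7 CPM in WT. Replicates 1, 3 and 4 labelled cKO lay above every WT library for Kcna1, and the log2 fold change was 0.07 ± 0.05 (SE; adjusted p = 0.689 by edgeR), or 0.04 without replicate 4 labelled cKO. Kcna6 and Kcna4, of which Kcna4 gives an inactivating current, averaged 72.1 and 24.7 CPM in cKO-labelled libraries and 70.8 and 26.0 CPM in WT. Of the Kcna6 exon bases 39.6% are shared with Gm26673 on the opposite strand. Kcna3, best known from T lymphocytes, had 4.88 ± 0.536 CPM in cKO-labelled libraries and 4.84 ± 0.673 CPM in WT (SD, n = 6 and 5).

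Kcnc1 and Kcnc2 encode the Kv3 channels of fast-spiking neurons such as parvalbumin interneurons. Kcnc1 averaged 145 ± 11.3 CPM in cKO-labelled libraries and 146 ± 6.45 CPM in WT, and Kcnc2 79.1 ± 9.58 CPM in cKO-labelled libraries and 78.6 ± 6.20 CPM in WT (SD, n = 6 and 5). The summed level of 8 interneuron markers overlapped as well, at 667 to 901 CPM in cKO-labelled libraries and 717 to 794 CPM in WT. Kcnb2, a delayed rectifier gene of the Kv2 family, averaged 19.4 CPM in cKO-labelled libraries and 19.9 CPM in WT.

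Of the A-type channel genes, Kcnd2 was the higher per kb. Its channel carries most of the transient current in dendrites of CA1 pyramidal cells. It had 101 to 113 CPM with a median of 108 in cKO-labelled libraries, and 91.7, 113.5, 103, 104.5 and 106 CPM in WT. WT replicates 1 and 2 were the lowest and the highest of all 11 libraries, and the log2 fold change was 0.04 ± 0.05 (SE; adjusted p = 0.855 by edgeR), or -0.04 with a sex term. Kcnd3 had 85.1 to 102 CPM with a median of 94.9 in cKO-labelled libraries, and 92.5, 85.2, 89.6, 86.2 and 92.4 CPM in WT. Replicates 1, 3 and 5 labelled cKO lay above every WT library, and replicate 6 was the lowest of all 11. The log2 fold change of Kcnd3 was 0.08 ± 0.05 (SE; adjusted p = 0.649 by edgeR). Of the other Kv4 partners, Kcnip4 averaged 44.0 CPM in cKO-labelled libraries and 41.3 CPM in WT, and Kcnip1, known from interneurons, 15.4 CPM in cKO-labelled libraries and 14.8 CPM in WT. The 4 KChIP genes thus had values on both sides, with Kcnip2 lower and the other 3 higher in cKO-labelled libraries.

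Kcnq3 and Kcnq5, which encode subunits of the M-channel, had log2 fold changes of 0.03 and 0.10. Kcnq3 ran from 179 to 242 CPM with a median of 201 in cKO-labelled libraries, and was 176, 228, 189.5, 186 and 219 CPM in WT replicates 1 to 5. Replicate 1 labelled cKO was the highest, followed by WT replicates 2 and 5, and the groups overlapped (log2 fold change 0.03 ± 0.08, SE; edgeR, adjusted p = 0.955). Kcnq5 ran from 59.6 to 80.4 CPM with a median of 68.0 in cKO-labelled libraries, and was 73.2, 56.9, 62.6, 62.4 and 64.4 CPM in WT. Replicate 4 labelled cKO alone lay above WT replicate 1 for Kcnq5, and the log2 fold change was 0.10 ± 0.08 (SE; adjusted p = 0.719 by edgeR).

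Of the ether-a-go-go family, Kcnh3 was the highest per kb and had the smallest spread between libraries. It encodes a channel of the Elk branch found mainly in forebrain neurons. Its level was 116 to 128 CPM with a median of 117 in cKO-labelled libraries, and 116, 119, 107, 123 and 115 CPM in WT. Replicate 6 labelled cKO alone gave the upper end, while the other 5 were 116 to 117 CPM, and the log2 fold change was 0.03 ± 0.05 (SE; adjusted p = 0.888 by edgeR). Kcnh7, a gene of the Erg branch, had the largest spread between libraries of all 31 genes, with a pooled SD of 0.24 on the log2 scale against 0.06 for Kcnip2, the smallest. It ran from 32.6 to 47.8 CPM with a median of 34.8 in cKO-labelled libraries, and was 28.1, 41.1, 32.1, 29.9 and 41.9 CPM in WT. The log2 fold change of Kcnh7 was 0.12 ± 0.13 (SE; adjusted p = 0.822 by edgeR). Kcnh1, a gene of the Eag branch, averaged 53.1 CPM in cKO-labelled libraries and 52.6 CPM in WT.

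The small-conductance genes Kcnn1, Kcnn2 and Kcnn3, whose channels respond to calcium through calmodulin, had log2 fold changes from -0.01 to 0.04, none past the test. Kcnn2, the highest of them per kb, ran from 50.9 to 61.0 CPM with a median of 57.7 in cKO-labelled libraries, and was 52.3, 55.3, 55.2, 55.3 and 62.2 CPM in WT. WT replicate 5 was the highest and replicate 4 labelled cKO the lowest, and the log2 fold change was 0.04 ± 0.06 (SE; adjusted p = 0.89 by edgeR), or -0.03 with a sex term. Kcnn3 averaged 32.6 CPM in cKO-labelled libraries and 31.6 CPM in WT, and Kcnn1 23.6 CPM in cKO-labelled libraries and 23.8 CPM in WT.

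The inward rectifier genes had log2 fold changes from -0.06 to 0.05. Kcnj4 encodes a strong inward rectifier of forebrain neurons, and Kcnj3, Kcnj6 and Kcnj9 the G protein-gated subunits. Kcnj4 ran from 60.5 to 73.2 CPM with a median of 65.2 in cKO-labelled libraries, and was 61.1, 64.9, 69.3, 75.6 and 61.7 CPM in WT, with a log2 fold change of -0.0012 ± 0.06 (SE; adjusted p = 0.997 by edgeR). WT replicate 4 had the highest value and replicate 1 labelled cKO the lowest. Kcnj9 ran from 93.4 to 106 CPM with a median of 100.2 in cKO-labelled libraries, and was 98.7, 102, 100.5, 106 and 112 CPM in WT. Replicates 4 and 6 labelled cKO lay below every WT library and WT replicate 5 above all others, with a log2 fold change of -0.06 ± 0.05 (SE; adjusted p = 0.732 by edgeR). Kcnj3 averaged 115 CPM in cKO-labelled libraries and 112 CPM in WT, with 31.1% of its exon bases shared with Gm26794 on the opposite strand, and Kcnj6 36.9 CPM in cKO-labelled libraries and 35.7 CPM in WT.

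Kcnk1 and Kcnk2 encode the tandem-pore channels known as TWIK and TREK. Kcnk1 ran from 68.4 to 92.4 CPM with a median of 79.0 in cKO-labelled libraries, and was 76.2, 76.8, 75.3, 84.9 and 71.5 CPM in WT. Replicates 4 and 6 labelled cKO were the highest and replicate 1 labelled cKO the lowest of all libraries, so the WT values lay inside, and the log2 fold change was 0.08 ± 0.07 (SE; adjusted p = 0.777 by edgeR). Kcnk2 averaged 54.1 CPM in cKO-labelled libraries and 55.5 CPM in WT.

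The WT libraries read as female and as male did not overlap for 9 of the 31 members, against a background of 22.2% of all genes tested. The female libraries were higher for Kcna4, Kcnh1, Kcnn1 and Kcnip2 and lower for Kcnc2, Kcnd2, Kcnq3, Kcnh7 and Kcnk2. In the fit with a sex term, whose value rests on the WT libraries because no library labelled cKO was female, 2 members, Kcnh7 and Kcnq3, had an unadjusted p under 0.05 (background 3.38%) and none passed adjusted over all genes (background 0.0301%). Kcnh7 was 28.1 to 32.1 CPM in the 3 female and 41.1 to 41.9 CPM in the 2 male WT libraries, a log2 difference, female minus male, of -0.46 ± 0.14 (SE; adjusted p = 0.981 by edgeR). Kcnq3 was 176 to 189.5 CPM in the female and 219 to 228 CPM in the male WT libraries, a log2 difference of -0.28 ± 0.10 (SE; adjusted p = 0.981 by edgeR). The libraries labelled cKO, all read as male, ran from 32.6 to 47.8 CPM for Kcnh7 and from 179 to 242 CPM for Kcnq3. With the sex term the genotype difference took the other sign for both genes, at -0.14 ± 0.12 for Kcnh7 and -0.14 ± 0.09 for Kcnq3 (SE; edgeR, adjusted p = 0.837 and 0.771), and no member had an unadjusted p under 0.05 (background 6.95%). With 2 libraries a male WT level and other traits of those 2 libraries cannot be told apart.

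The levels of several channel genes followed the markers of hippocampal subfields from library to library. Each of the 31 genes was correlated on a log2 scale with the summed CPM of 6 marker lists across the 11 libraries, 186 relations in all, a choice made after the data were seen. Adjusted over these, 4 relations passed by Pearson's r and none of them by Spearman's rho. In bulk tissue, fewer cells of a type and less RNA per cell cannot be told apart.

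Kcnk1 followed the CA2 and CA3 markers. Pearson's r was 0.92 (permutation p = 9e-05, adjusted 0.0167) and Spearman's rho 0.80 (permutation p = 0.00471, adjusted 0.113). Pearson's r was 0.78 without the 2 libraries farthest from the median marker sum. It was 0.96 in the 8 male libraries and 0.96 in the 6 labelled cKO. The 6 are among the 8 and both sets held the 2 farthest libraries, so these values are not separate support. The marker sum was highest in replicates 4 and 6 labelled cKO, at 1149.6 and 1099.9 CPM, where Kcnk1 was highest too. Nptx1 made up 72.8% of this sum, and r was 0.86 without it. The markers did not all follow Kcnk1 closely, since r was 0.89 for Nptx1 and 0.835 for Rgs14 alone but 0.67 for Bok, 0.60 for Iyd, 0.45 for Cacng5 and 0.37 for Amigo2. Against the dentate granule markers Kcnk1 had r = 0.756 (adjusted permutation p = 0.155) and rho = 0.58 (adjusted 0.413).

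Kcnh1 followed the CA2 and CA3 markers as well, with r = 0.86 (permutation p = 0.0005, adjusted 0.0465) and rho = 0.88 (permutation p = 0.0007, adjusted 0.0632). Its r was 0.66 without the 2 farthest libraries and 0.90 over all 11 without Nptx1. It was 0.94 in the 8 male libraries and 0.94 in the 6 labelled cKO, and both sets again held the 2 farthest libraries. Single markers ranged from 0.90 for Iyd and 0.85 for Bok to 0.35 for Amigo2 and 0.28 for Cacng5. The dentate granule markers gave Kcnh1 r = 0.755 (adjusted permutation p = 0.147) and rho = 0.88 (adjusted 0.0632). There r was 0.83 without the 2 farthest libraries, so the relation was not particular to the CA2 and CA3 list. Against the CA1 markers Kcnh1 went the other way, with r = -0.84 (permutation p = 0.00107, adjusted 0.0498) and rho = -0.87 (permutation p = 0.00102, adjusted 0.0632), and r = -0.85 without the 2 farthest libraries. Within the CA1 list Mpped1 alone gave -0.86 and Dcn, also on the meningeal list, -0.80, while Wfs1 alone gave -0.16 and Pou3f1 alone 0.09.

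Kcnc2 was lower where the dentate granule markers were higher. Here r was -0.88 (permutation p = 0.00075, adjusted 0.0465) and rho -0.80 (permutation p = 0.00465, adjusted 0.113), with r = -0.81 without the 2 farthest libraries and -0.87 in the 6 labelled cKO. Single dentate markers differed as well, since Lct alone gave -0.89, Prox1 alone -0.49 and Tdo2 alone 0.06, and the sum without C1ql2 gave -0.56. Against the CA2 and CA3 markers Kcnc2 had r = -0.67 (adjusted permutation p = 0.258) and rho = -0.80 (adjusted 0.113). For the CA1 markers r was 0.54 (adjusted permutation p = 0.443) and rho 0.70 (adjusted 0.277). The relation was thus not particular to the dentate granule list. With the interneuron markers Kcnc2 had r = 0.28 (adjusted permutation p = 0.724) and rho = 0.10 (adjusted 0.776). There r was -0.37 without the 2 farthest libraries. The summed markers themselves overlapped between the genotypes, at 834 to 1149.6 CPM in cKO-labelled libraries and 845 to 1029.5 CPM in WT for CA2 and CA3, and at 266 to 375 CPM in cKO-labelled libraries and 269.7 to 385 CPM in WT for the dentate granule list.

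**Figure D4:**
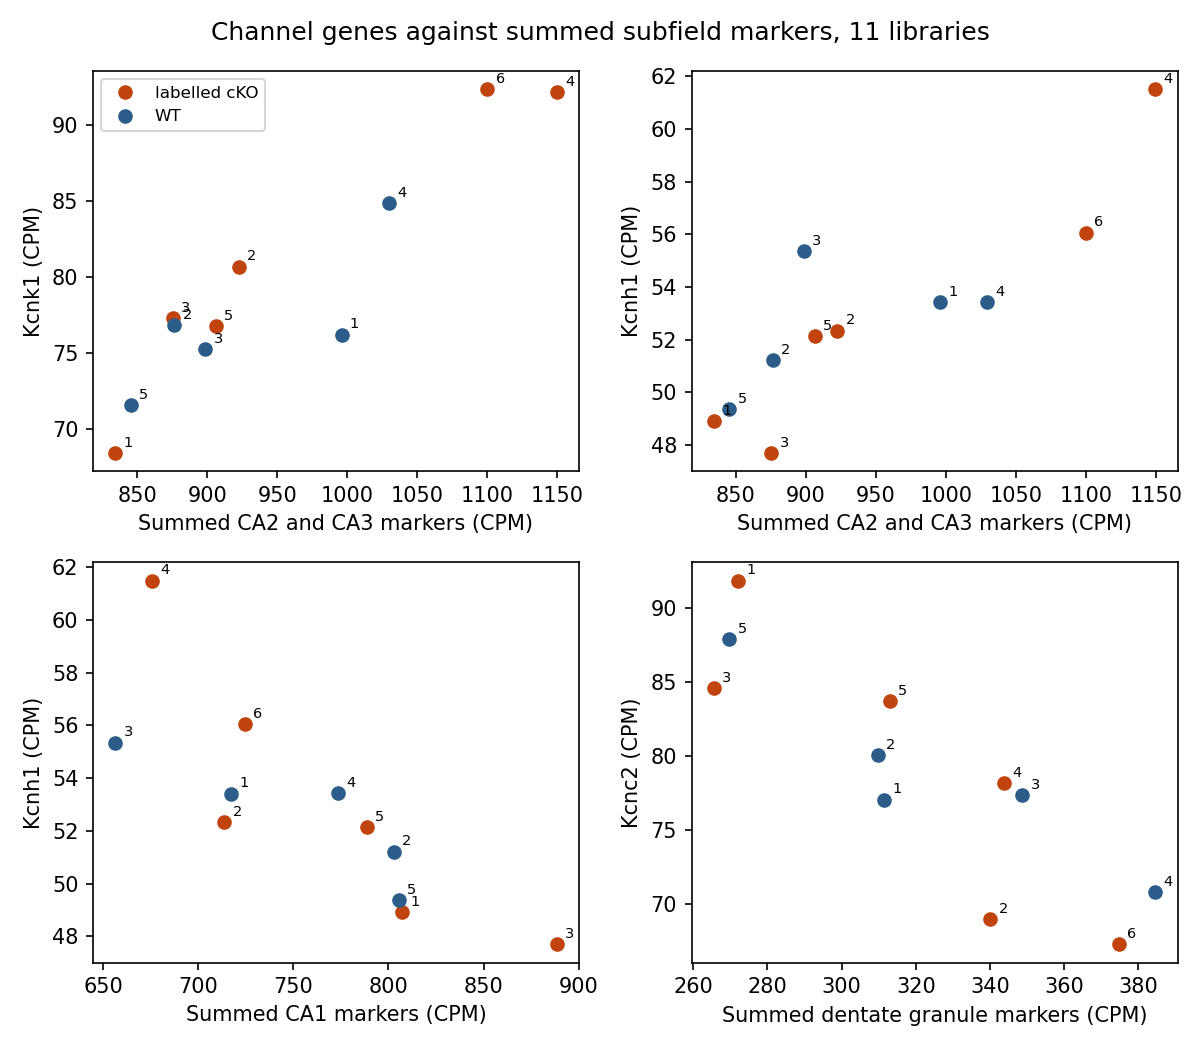
CPM of Kcnk1, Kcnh1 and Kcnc2 against the summed CPM of subfield markers, 1 point per library with its replicate number, 6 labelled cKO and 5 WT. Kcnk1 and Kcnh1 increase with the CA2 and CA3 markers, Kcnh1 decreases with the CA1 markers and Kcnc2 with the dentate granule markers, and libraries of both groups lie along each trend. The axes do not start at 0.

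Potassium channel genes outside the list also held no called gene. Of 64 such genes, among them other pore-forming subunits and the auxiliary Kcne, Kcnab, Kcnmb and Dpp proteins, 61 were found in the table. Of these 52 passed the filter on low counts and none passed the test (edgeR, smallest adjusted p = 0.477). At an unadjusted p under 0.05 there were 4 with higher and 5 with lower values in cKO-labelled libraries, against backgrounds of 3.84% and 5.35%. The 4 of smallest p were Kcng2, a silent Kv subunit (-0.23 ± 0.09), Kcnk4, a mechanosensitive tandem-pore channel (-0.26 ± 0.10), Kcne1l, an auxiliary subunit (0.66 ± 0.25), and Kcnk5, an acid-sensitive tandem-pore channel (-0.57 ± 0.23; log2 fold change ± SE). The level of Kcnk5 was low, at 0.39 CPM in cKO-labelled libraries and 0.58 CPM in WT. The median log2 fold change of the 52 genes was -0.03, with 22 genes above 0 and 30 below it.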

How the data were processed

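Each library came from polyadenylated RNA of 1 hippocampus with a preparation that marks strand, per the labels' protocols. bcl2fastq 2.17.1.14 and the build mm10 are named in the submitters' processing notes, while the sources used here do not name aligner, counter, annotation or strand setting. The authors deposited raw counts per Ensembl gene, all whole numbers. Of 30681 genes, 30566 had a symbol. Positions and exon lengths came from GENCODE M21 (mm10).

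Genotypes were taken from the labels, 6 cKO and 5 WT. Genes with low counts were removed by filterByExpr, 16587 were tested with TMM scaling, and the test was edgeR's 2-sided robust quasi-likelihood F test with Benjamini-Hochberg adjustment at 0.05 (R 4.3.3, edgeR 4.0.16, limma 3.58.1, DESeq2 1.42.0). CPM values were computed from the deposited counts. Standard errors were the log2 fold change over the root of F. The common coefficient of variation was 9.56%. Between replicates chi-square per degree of freedom was at least 5.70, so no libraries were alike within sampling noise.

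The members and lists were chosen with earlier results of these data known. Full values are given for members at an unadjusted p under 0.05, for the member of smallest p and for that of the highest level per kb in each family, 16 genes; the other 15 are given by level. A library counted as female where Xist exceeded the sum of 4 Y-linked genes. Exons of 14 members overlap a gene on the opposite strand, so where counting ignored the strand their counts may hold its reads; among the 4 members of smallest p this holds for Kcnma1. Correlations were tested with 100000 permutations. Alternatives were other scalings and filters, DESeq2, limma-voom, a sex term, the 8 male libraries, the replicate number as a block and each library left out. The tests were checked on counts simulated for 6 against 5 libraries, with 50 genes changed at each fold. edgeR recovered 54% of changes of 1.25-fold, 80% of 1.5-fold and 98% of 2-fold, with 8 false calls among 16249 unchanged genes. DESeq2 recovered 68%, 86% and 98%, with 24 false calls among 16387. For limma-voom these were 56%, 76% and 98%, with 12 false calls among 16249. The changed genes were drawn from those averaging over 1 CPM. The simulated counts held no sex imbalance and no variation shared between genes, so these rates may not hold for the real libraries.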

Additional observations from a re-analysis of the deposited data

Results flagged for a closer look

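A library far from the others of its group was found in 2 of the 62 sets examined (31 genes in each of 2 groups), and chance alone gives about 1 in 20. Kcnh3 was 128 CPM in replicate 6 labelled cKO and 116 to 117 CPM in the other 5 libraries labelled cKO. Kcnn1 was 25.1 CPM in WT replicate 4 and 23.3 to 23.6 CPM in the other 4 WT libraries. Neither gene passed the test between the genotypes (edgeR, adjusted p = 0.888 for Kcnh3 and 0.983 for Kcnn1).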

How the results depend on the processing

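No member was called under any of the 20 alternatives. The genes called over the whole table, 0 as reported, were 3 with no filter, 58 with DESeq2 and 0 to 14 with each library left out. Members with higher values at an unadjusted p under 0.05, 3 as reported, were 0 with a sex term, 0 in the male libraries only and 0 to 4 with each library left out, and members with lower values, 1 as reported, were 0 with a sex term, 0 in the male libraries only and 1 with any library left out. The folds did not all shrink with these calls: with a sex term and in the male libraries Kcnc4 was at 0.244 and 0.247 and Kcnip3 at 0.146 and 0.148, against 0.205 and 0.154 as reported, while Kcnma1 was at 0.0777 and 0.0802 against 0.122 and Kcnip2 at -0.0806 and -0.0783 against -0.132. An alternative chosen after seeing the data, the intervals with a sex term, left 21 members within 0.32 on the log2 scale, 28 as reported. The median log2 fold change of the members stayed between 0.02 and 0.05. Of 5 same-numbered pairs of libraries, 2 had a correlation of their deviations over 0.1, and the values ran from -0.368 to 0.273. With so few pairs this cannot show whether the replicate numbers pair the libraries. With the number as a block the median log2 fold change of the members was 0.03, with 2 higher and 1 lower members. The higher ones were Kcnma1 and Kcnd3 and the lower one Kcnip2. Kcnc4 and Kcnip3 were no longer among them, with unadjusted p = 0.158 and 0.103 by edgeR. Signs of 6 of the 16 genes given in full turned with a sex term and in the male libraries. Their log2 fold changes were -0.0371 and -0.0348 for Kcna2, -0.0391 and -0.0368 for Kcnd2, and -0.137 and -0.135 for Kcnq3. They were -0.137 and -0.135 for Kcnh7, -0.0319 and -0.0293 for Kcnn2, and 0.0707 and 0.073 for Kcnj4. Among the other 15 genes, Kcna4, Kcnc1, Kcnc2, Kcnh5, Kcnn1 and Kcnn3 changed sign in both settings too. With a sex term these were at 0.0825, 0.00125, -0.0869, 0.0497, 0.0187 and -0.0631. Kcnj4, at -0.0012 as reported, was also above 0 with RLE scaling (0.0035), no filter (0.0078), at least 1 CPM in 5 libraries (0.0023), DESeq2 (0.0044), limma-voom (0.011) and the replicate block (0.012). With each library left out, values ran for Kcna2 from -0.0166 to 0.0582, for Kcnd2 from -0.00176 to 0.0767, for Kcnq3 from -0.0278 to 0.0769, for Kcnh3 from -0.0017 to 0.0489, and for Kcnj4 from -0.033 to 0.046. Without changing sign, leaving out 1 library moved 6 more by over 1.5 times: Kcnh7 ran from 0.0482 to 0.201, Kcnq5 from 0.0546 to 0.155, Kcnk1 from 0.0397 to 0.128, Kcna1 from 0.0376 to 0.0859, Kcnn2 from 0.00889 to 0.0736 and Kcnj9 from -0.0806 to -0.0323, with the values nearest 0 without cKO replicate 1 for Kcnh7, 4 for Kcnq5 and Kcna1 and 6 for Kcnk1, and without WT replicate 1 for Kcnn2 and 5 for Kcnj9. The cause was not tested. Precision was highest for Kcnip2 and lowest for Kcnh7, with SE of 0.045 and 0.13 on the log2 scale, and the smallest counts were those of Kcnh5.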
